A study of Danio rerio with 12 samples.

Results

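The late development of the microRNAs of zebrafish endothelial cells was followed in 4 small RNA libraries titled Endo, out of 12 libraries in the series. They comprised both replicates at 48 hpf (hours post fertilization), replicate 2 at 72 hpf and the single replicate at 6 dpf (days post fertilization), and the 48 hpf pair was set against the 2 later libraries. Replicate 1 at 72 hpf was left out because its values are identical to those of a library titled NoEndo. The series sampled both populations from 24 hpf to 6 dpf, and all 4 libraries share 1 protocol: transgenic fish kept at 28 °C, dissociation with Liberase, a sort for GFP, Trizol extraction and a TruSeq library. No drug, mutation or other treatment is labelled, and the sources used here do not name the transgene or its promoter. The NoEndo libraries carry the same endothelial and GFP labels, so the 2 populations rest on the titles alone. No label ties a replicate to its own clutch or sort, so the spread that p-values measure here may be technical. Each later stage is a single library, so a stage and a library cannot be told apart at 72 hpf or at 6 dpf.

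MicroRNAs are short RNAs that guide Argonaute proteins to messenger RNAs, mainly through the seed near their 5′ end, and lower the stability and translation of their targets. Many are expressed in 1 cell type and others are timed to a developmental stage. In zebrafish, the miR-430 family clears maternal messenger RNAs in the early embryo, while let-7 and the lin-4 relative miR-125 are timing microRNAs first described in Caenorhabditis elegans and accumulate late. In endothelial cells, miR-126 supports vascular integrity, and several clusters such as miR-17-92 and miR-23-27-24 are studied for their roles in vessel growth.

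The 4 libraries held 1068864 and 743938 reads on mature microRNAs at 48 hpf, 996643 at 72 hpf and 250084 at 6 dpf. Of 326 microRNAs, 283 and 290.0 had at least 1 count at 48 hpf, against 288 at 72 hpf and only 227 at 6 dpf. Where no count was found, a level of up to 2.81, 4.04, 3.01 and 12 CPM (counts scaled to a fixed library total) in these libraries is still possible in the same order, from counting error alone, so the 6 dpf library was the least able to show a low level. Levels are given below as normalised CPM, scaled by TMM factors, and 240 microRNAs that reached 10 CPM in 2 or more of the 4 libraries were tested. The limits above are before this scaling. The TMM factor of 0.568 at 6 dpf makes the limit of that library higher still in normalised CPM.

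By their share of miR-126 the libraries matched their endothelial title. The 3 entries of miR-126a and miR-126b together held 4.39% and 9.42% of the counts at 48 hpf, then 3.77% and 1.61% at 72 hpf and 6 dpf. The 4 NoEndo libraries of these stages gave them 0.0136% to 0.0715%. The share of miR-126 was therefore above that of every NoEndo library at each of the 3 stages, and it was lowest at 6 dpf. A share also depends on all other microRNAs, and at 6 dpf the 5 most abundant took 67.7% of the counts. After TMM scaling the log2 changes of the 3 entries at 6 dpf were -0.72 to -0.97, and none was called. In sorted cells measured in bulk, fewer cells of a type and less RNA per cell cannot be told apart.

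The order of the most abundant microRNAs differed between the stages. At 48 hpf, miR-92a-3p of the miR-17-92 cluster led with 13.5% and 13.2% of the counts, followed by miR-222a-3p, a vascular microRNA, with 10.7% and 7.52%. At 72 hpf, miR-125b-5p led with 13.2%, ahead of miR-92a-3p with 12.1% and miR-150, known from lymphocytes, with 6.04%. At 6 dpf, miR-125b-5p held 21.4%, miR-92a-3p 21.2%, miR-125a 10.8%, miR-125c-5p 8.16% and miR-150 6.13%. The 5 leading microRNAs took 41.9% and 39.5% of the counts at 48 hpf, then 42.9% and 67.7% at the later stages. Only the 6 dpf library stood apart in this measure.

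With both later libraries taken as a group against the 48 hpf pair, no microRNA passed the test. edgeR's quasi-likelihood test with Benjamini-Hochberg adjustment called 0 of 240 microRNAs (0%), with 32 at an unadjusted p under 0.05 (17 higher and 15 lower later) and a smallest adjusted p of 0.304. On the same libraries limma-voom called 0 and the DESeq2 Wald test 16. With TMM scaling the groups did not overlap for 61 microRNAs with both later libraries above the pair (25.4% of those tested) and for 62 with both below (25.8%). These counts depend on the scaling: the median log2 difference over all 240 was 0.05 with TMM and -0.64 on total counts. MicroRNAs without a count at 6 dpf entered at 0 and not at the floor, so the 62 may be too large. The 2 later libraries differed from each other by more than the 48 hpf pair did: the root mean square difference over 240 microRNAs was 1.77 on the log2 scale between 72 hpf and 6 dpf and 1.02 between the 48 hpf replicates. Without the 72 hpf library the test called 38, and without replicate 1 at 48 hpf it called 6. Each of these fits leaves 1 side with a single library, which is assumed to vary like the other side.

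The increases with the smallest p were led by miR-122, the microRNA of hepatocytes, which stood at 43.7 and 37.3 normalised CPM at 48 hpf, 247 at 72 hpf and 1276 at 6 dpf. Both later libraries were above the pair, and the log2 difference of the groups was 4.21 (SE 0.88, adjusted p = 0.304 in edgeR). The other 4 were miR-145-5p at 2.91, miR-125c-5p at 2.20, miR-100-5p at 1.99 and let-7d-5p at 1.72, with the same adjusted p and no overlap of the groups. The decreases with the smallest p were led by miR-223, a microRNA of neutrophils and other myeloid cells. It stood at 5747 and 4645 normalised CPM at 48 hpf, 1717 at 72 hpf and 966 at 6 dpf. The log2 difference was -1.95 (SE 0.52, adjusted p = 0.304 in edgeR). The other 4 were miR-430b-3p at -3.01, miR-430a-5p at -2.02, a joint entry of a miR-430a 5p arm at -1.78 and miR-216b, a microRNA of the exocrine pancreas, at -3.30. The values of miR-216b were 43.7 and 508 normalised CPM at 48 hpf, 31.8 at 72 hpf and 21.1 at 6 dpf, the last at the floor of 3 counts. Replicate 2 at 48 hpf alone was high, and without it the log2 difference was -0.67.

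The 3 stages were then separated in a fit over 10 libraries that gives every stage of each population its own mean, whose spread comes from the 48 hpf replicates of both populations. It takes the Endo and NoEndo replicates as independent, which no label settles. The counts rise strongly with a replicate block, as given in the section on how the results depend on the processing. At 72 hpf against 48 hpf, edgeR's quasi-likelihood test called 0 of 240 (0%), with 12 at an unadjusted p under 0.05, while limma-voom called 0 and DESeq2 2. At 6 dpf against 48 hpf it called 13 (5.42%), of which 9 rose (3.75%) and 4 fell (1.67%), while limma-voom called 10 and DESeq2 38. Between 72 hpf and 6 dpf it called 0 (0%), with 32 at an unadjusted p under 0.05, while limma-voom called 0 and DESeq2 3. These comparisons share libraries, the 48 hpf pair or a later one, so their counts are not independent, and the differences between them were not tested.

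**Figure D1:**
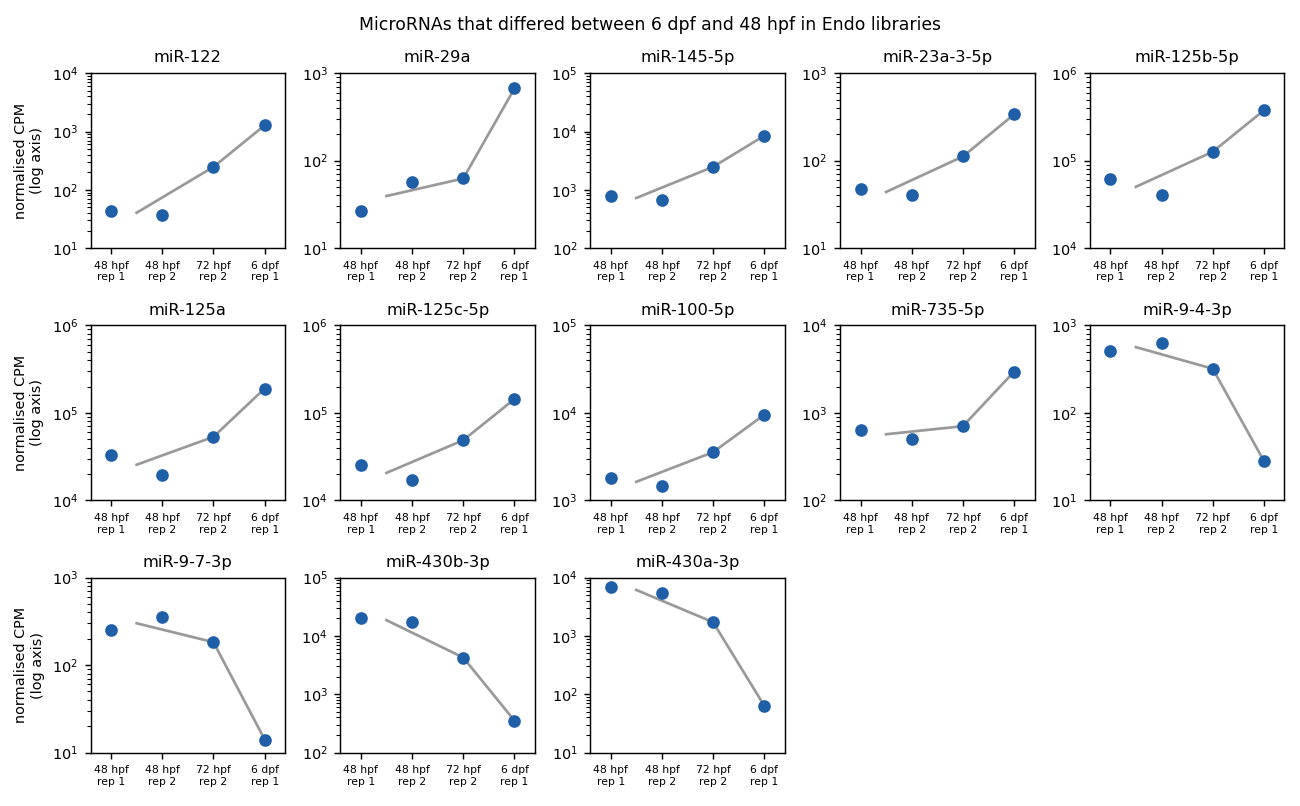
Normalised CPM (log axis, a scale of its own in each panel) of the 13 microRNAs that differed between 6 dpf and 48 hpf, by library along the horizontal axis; points are libraries and the line joins the geometric mean of the 48 hpf pair to the later libraries. In each of the 13 panels the 72 hpf point lies between the 48 hpf mean and the 6 dpf point, as for miR-122 with 247 at 72 hpf and 1276 at 6 dpf.

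The timing microRNAs of the miR-125 and miR-100 families made up 4 of the 9 increases at 6 dpf. miR-125b-5p stood at 62395 and 40504 normalised CPM at 48 hpf, 126564 at 72 hpf and 376578 at 6 dpf. Both later libraries were above the pair and the 6 dpf value was the highest, 7.77-fold above the pair (log2 2.96, SE 0.57, adjusted p = 0.047 in edgeR). Its relative miR-125a stood at 33179 and 19659.5, then 53219 and 189949 normalised CPM, a log2 change of 2.93 (SE 0.54). miR-125c-5p stood at 25139 and 16873, then 48739.6 and 143827, a log2 change of 2.86 (SE 0.53). All 3 had the same order of libraries: replicate 2 at 48 hpf lowest, replicate 1 next, then 72 hpf and 6 dpf. miR-100-5p, which lies with miR-125b at 2 of its 3 copies, stood at 1824 and 1456, then 3555 and 9529 normalised CPM. At 6 dpf miR-100-5p rose 6.16-fold (log2 2.62, SE 0.44). Reads of near-identical miR-125 members are uncertain between them.

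Over the whole list of timing microRNAs (let-7, miR-125, miR-99 and miR-100), 18 of 22 entries passed the filter on low values. The 4 just described rose at 6 dpf, against 3.75% of all tested, and none fell. The list's median log2 change at 6 dpf was 1.05, beside -0.06 over all 240. With TMM scaling 14 of its entries had both later libraries above the pair, as did 25.4% of all tested. That count was not repeated on total counts. On total counts without TMM scaling the list's median was -0.24 and that over all 240 was -1.32, so the sign of the list flipped while its distance from the rest stayed above 1. The list's summed share was 15.7% and 13.9% of the counts at 48 hpf, then 27.2% and 42.3% at the later stages. No let-7 member was called. let-7a stood at 10669.9 and 7651 normalised CPM at 48 hpf, 17225 at 72 hpf and 11347 at 6 dpf (log2 at 6 dpf 0.39, SE 0.51, and -0.87 on total counts). For let-7d-5p the values were 1602 and 965, 3309 and 5173 normalised CPM (log2 2.10, SE 0.50, adjusted p = 0.065 in edgeR). let-7e and let-7f overlapped between the groups and stood highest at 72 hpf.

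Members of these clusters share loci in the Zv9 genome. miR-100, let-7a and miR-125b lie together at chr15:20399298-20409404 on the plus strand and at chr5:31628647-31637326 on the plus strand, and miR-125b has another copy at chr10:39415886-39415907 on the minus strand. Counts were summed over all copies of a microRNA, so no value belongs to a single locus. miR-100-5p has 2 copies, let-7a 7 and miR-125b-5p 3. Their log2 changes at 6 dpf, over all copies, were 2.62 for miR-100-5p, 0.39 for let-7a and 2.96 for miR-125b-5p. let-7c, miR-125c and miR-99 lie at chr15:29144690-29150135 on the plus strand, with log2 changes of 0.71 for let-7c-5p (-0.56 on total counts), 2.86 for miR-125c-5p and 1.33 for miR-99. The values of let-7c-5p and miR-99 also pool a copy of each on chr10, at 39436652-39436673 and 39438878-39438899 on the minus strand. In both sets the miR-125 member was called and the let-7 member was not, and that difference was not tested. Host genes, exons and introns in Zv9 were not analysed here.

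Of the 5 increases outside the timing list, 4 belong to other lists and miR-735-5p to none. miR-122 rose 33.3-fold at 6 dpf (log2 5.06, SE 0.54, adjusted p = 0.018 in edgeR) and had the largest increase of the 13, from 1 copy at chr21:9416786-9416807 on the minus strand. miR-145-5p, a microRNA of smooth muscle and pericytes, stood at 784 and 670.0 normalised CPM at 48 hpf, 2479.9 at 72 hpf and 8465 at 6 dpf. Both later libraries were above the pair (log2 3.62, SE 0.42, adjusted p = 0.018 in edgeR). Its cluster partner miR-143, at chr14:40131717-40133459 and again at chr14:40238821-40240482 on the plus strand, stood at 95.9 and 149, then 192 and 416 normalised CPM (log2 1.84, SE 0.64, not called). The other arm, miR-145-3p, overlapped between the groups and was not called (log2 at 6 dpf 0.43). miR-29a, whose family targets collagens and other matrix genes, stood at 26.9 and 57.8 normalised CPM at 48 hpf, 62.6 at 72 hpf and 669.6 at 6 dpf. Only the 6 dpf library was high, since 72 hpf was close to replicate 2 at 48 hpf (log2 at 6 dpf 4.05, SE 0.73, adjusted p = 0.047 in edgeR). miR-29b has 2 copies, 1 of them beside miR-29a at chr4:10671306-10672753 on the minus strand. Over both copies miR-29b stood at 10.1 and 19.5, then 11.6 and 226 normalised CPM (log2 4.00, SE 0.88, adjusted p = 0.063 in edgeR). The 5p arm entry miR-23a-3-5p stood at 47.1 and 40.9, then 112 and 338 normalised CPM and rose by a log2 of 3.02 (SE 0.60). The far more abundant arm miR-23a-3p, summed over 4 copies, changed by a log2 of 0.84 and was not called. miR-735-5p stood at 644 and 504, then 705 and 2960.1 normalised CPM and rose by a log2 of 2.45 (SE 0.47).

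The decreases at 6 dpf were 2 microRNAs of the early embryo and 2 of the nervous system. miR-430b-3p stood at 19932 and 17430.0 normalised CPM at 48 hpf, 4258 at 72 hpf and 352 at 6 dpf. Each later stage was below the one before, and at 6 dpf the level was 50.1-fold lower than at 48 hpf (log2 -5.65, SE 0.76, adjusted p = 0.024 in edgeR). miR-430a-3p stood at 6959 and 5434, then 1720.3 and 63.4 normalised CPM (log2 -6.52, SE 0.78, adjusted p = 0.018 in edgeR). Most copies of both lie in the miR-430 array at chr4:28000808-28017075 on the plus strand. Of the 8 miR-430 entries 7 passed the filter, and all 7 had both later libraries below the pair (25.8% of all tested did). Of the 7, 2 were at 0 at 6 dpf, miR-430c-3p and miR-430c-5p. For miR-430c-5p the floor of the 6 dpf library lies above replicate 1 at 48 hpf, so its place at 6 dpf cannot be told. With those 2 set to the floor of the 6 dpf library, the median log2 change of the list at 6 dpf was -2.87, beside 0.07 over all 240 treated likewise. The list's summed share was 3.23% and 3.74% at 48 hpf, then 0.704% and 0.0380% at the later stages.

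The neural decreases were both 3p arms of miR-9, a microRNA of neural progenitors. miR-9-4-3p stood at 513 and 622 normalised CPM at 48 hpf, 319.6 at 72 hpf and 28.2 at 6 dpf (log2 -4.25, SE 0.66, adjusted p = 0.036 in edgeR). miR-9-7-3p stood at 255 and 355, then 183 and 14.1 normalised CPM (log2 -4.35, SE 0.84, adjusted p = 0.047 in edgeR). Its 6 dpf value rests on 2 counts, under the floor of 3 counts, and that of miR-9-4-3p lies just above the floor. The 72 hpf library was below both 48 hpf libraries in each, and 6 dpf was far below all. The main arm miR-9-5p stood at 2343 and 4886, then 2409 and 402 normalised CPM, with 72 hpf inside the 48 hpf pair (log2 -3.10, SE 0.72, adjusted p = 0.063 in edgeR). Of 33 neural entries 21 passed the filter, 2 fell, against 1.67% of all tested, and none rose. With TMM scaling 11 had both later libraries below the pair and 2 above it (25.8% and 25.4% of all tested). The most abundant neural entry, miR-128-3p, was above it. Scaled over the 8 Endo and NoEndo libraries, it stood in Endo at 6094 and 5851 CPM at 48 hpf, then 6638 and 8368. The median log2 change of the 21 tested, with 4 entries at 0 set to the floor, was -1.04. The neuronal microRNA miR-124-3p had few counts and stood at 3.36 and 17.8, then 7.70 and 42.3 normalised CPM. The list's summed share was 1.13% and 2.21% at 48 hpf, then 1.08% and 0.510% at the later stages. The part of neural cells in the miR-9 values was not tested.

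On total counts alone 8 microRNAs were called, 2 higher and 6 lower, against 9 higher and 4 lower with TMM scaling. Of the 13, 5 were still called and 8 were not, and all 13 kept their direction under every alternative run. The count rests on the 48 hpf pair: without either of its replicates edgeR called 0 and none of the 13 stayed past the threshold, while without NoEndo replicate 1 or 2 at 48 hpf, which enter through the spread and the scaling, it called 39 and 29. miR-122, miR-430a-3p, miR-430b-3p and miR-9-4-3p passed the test in 10 of 12 alternatives each, and miR-23a-3-5p in 4.

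A slope on log2 hours over the same 4 libraries, which uses the order of the stages, was past the threshold in edgeR's test for 42 microRNAs (17.5%), 23 rising (9.58%) and 19 falling (7.92%). All 13 of the calls at 6 dpf were among them, but both fits use the same 6 dpf library and 48 hpf pair, so this overlap is not separate support. The lone 6 dpf library lies furthest along the log2 hours and weighs most on each slope, so a slope alone does not show an ordered change. The rising slopes also included miR-150 (1.16 per doubling of age), miR-92a-3p (1.15) and miR-29b (2.46). The 72 hpf values of miR-92a-3p and miR-29b lay within the 48 hpf pair. miR-184 and miR-204-2-3p, known from lens and retinal pigment epithelium, rose as well (1.37 and 2.36). The slope of miR-204-2-3p rests on few counts, at a mean of 11.2 CPM over the 4 libraries. The falling slopes included 6 of the 7 tested miR-430 entries, 8 of the 21 tested neural entries, miR-223 (-1.55), miR-17a-5p (-1.01) and miR-196a-5p of the Hox clusters (-1.41). Among these, miR-430c-3p and the neural miR-153b-3p, miR-219-5p and miR-219-3p had no count at 6 dpf. Levels up to the floor of that library remain possible for them, so their slopes may be too steep. The other neural entries were miR-218a and the miR-9 arms miR-9-3p, miR-9-5p, miR-9-4-3p and miR-9-7-3p. In the stage model the microRNAs given a slope value here were not called at 6 dpf: miR-223 had an adjusted p of 0.063 and miR-150 of 0.134 in edgeR.

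In the remaining vascular and blood lists only miR-23a-3-5p was called at 6 dpf. None of the 3 miR-126 entries was called. miR-126a-3p stood at 30952 and 42469 normalised CPM at 48 hpf, 28683 at 72 hpf and 21207 at 6 dpf, and both later values were below the pair (log2 at 6 dpf -0.72, SE 0.57). Of the 21 other vascular entries (miR-139, miR-210, miR-221, miR-222 and the miR-23, miR-27 and miR-24 families) 20 passed the filter, and 1, miR-23a-3-5p, rose. Of all tested, 3.75% rose, so this count is near that share. The median log2 change of these vascular entries was 0.55 with TMM scaling and -0.79 on total counts. miR-222a-3p stood at 96068 and 49639, then 57482 and 75201 normalised CPM, and miR-221-3p at 52411 and 40700.0, then 34421 and 34098. The later values of miR-222a-3p lay within the pair, while those of miR-221-3p lay below it. miR-24 stood at 2853 and 3328, then 4644 and 6731 normalised CPM, with both later libraries above the pair (log2 1.20, SE 0.41, not called, and -0.11 on total counts).

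In the leukocyte list, miR-150, known from lymphocytes, and miR-223, known from myeloid cells, stood on opposite sides of the 48 hpf pair. Of 7 entries 6 passed the filter and none was called, with a median log2 change at 6 dpf of -0.04 (-1.37 on total counts). With TMM scaling only miR-150 had both later libraries above the pair, as did 25.4% of all tested. The 3 entries miR-223, miR-146b and miR-155 had both below it, as did 25.8% of all tested. miR-150 stood at 41019 and 19786 normalised CPM at 48 hpf, then 57849.7 and 108073, with both later libraries above the pair (log2 1.92, SE 0.66). miR-223 was the opposite, with both later libraries below it (log2 -2.34, SE 0.51). miR-142a-3p, a microRNA of blood cells, stood at 31.1 and 143, then 23.1 and 113 normalised CPM and overlapped. The summed share of the list was 5.24% and 3.76% at 48 hpf, then 6.23% and 6.21% at the later stages, most of it miR-150. Scaled over the 8 Endo and NoEndo libraries, miR-150 stood at 48907 and 24642 CPM in Endo at 48 hpf, then 68949 and 136650. In NoEndo it stood at 238 and 115, then 348 and 1205, so it was far higher in Endo at every stage. Which cells of the Endo libraries hold miR-150 was not tested. The erythroid miR-451, the only 1 of 3 erythroid entries to pass the filter, stood at 176 and 162, then 192 and 197 normalised CPM (log2 0.31, and -0.98 on total counts).

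In the miR-17-92 cluster, linked to proliferation, no member passed the threshold at 6 dpf, and the fitted change of miR-92a-3p was positive while those of 5 neighbouring main arms were negative. At chr1:2806111-2806943 on the plus strand lie miR-17a, miR-18a, miR-19a, miR-20a, miR-19b and miR-92a. A related cluster, with miR-18b in place of miR-18a, lies at chr9:55420231-55420945 on the minus strand. The values below pool both loci for miR-17a-5p, miR-19a-3p, miR-20a-5p, miR-19b-3p and miR-92a-3p, so they are not levels of 1 locus. miR-17a-5p stood at 2961 and 3911 normalised CPM at 48 hpf, then 2172 and 1142, with both later values below the pair (log2 at 6 dpf -1.51, SE 0.51). miR-92a-3p stood at 121096 and 87348, then 115794 and 373878 normalised CPM (log2 1.93, SE 0.53, adjusted p = 0.088 in edgeR). Its 72 hpf value lay within the pair and its 6 dpf value was the highest of all. The other main arms had log2 changes of -0.83 (miR-18a), -0.39 (miR-19a-3p), -1.53 (miR-20a-5p) and -0.82 (miR-19b-3p). The 6 dpf levels of miR-18a and miR-19a-3p lay inside the 48 hpf pair. The sign of miR-92a-3p was opposite to that of the other 5, also on total counts, where its log2 change was 0.67, and the difference between members was not tested. Over the wider list of 27 entries (with miR-93, miR-363 and paralogs) 18 passed the filter, none was called at 6 dpf and the median log2 change was -0.83. Its lowest member with a high level was miR-18c, at 3317 and 5156, then 2857 and 705 normalised CPM (log2 -2.51, SE 0.65, adjusted p = 0.081 in edgeR).

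**Figure D2:**
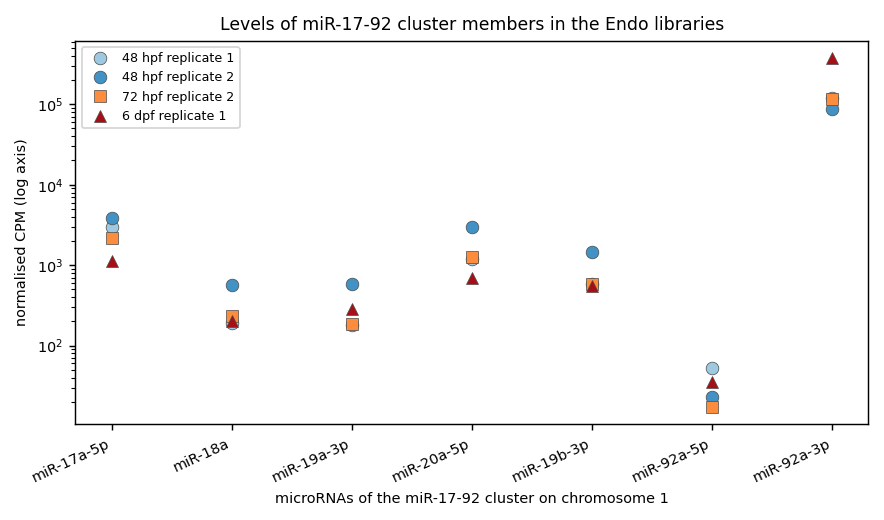
Normalised CPM (log axis) of 7 arms from the miR-17-92 cluster on chromosome 1 in the 4 Endo libraries, marked by stage and replicate. Levels of arms that also have a copy on chromosome 9 pool both copies. At 6 dpf miR-92a-3p is above all other libraries at 373878, while miR-17a-5p and miR-20a-5p are below all others at 1142 and 691.

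The Hox-cluster microRNAs miR-10 and miR-196 held no call. Of 14 entries 12 passed the filter, and 8 had both later libraries below the pair, as did 25.8% of all tested. With 3 entries at 0 set to the floor, their median log2 change at 6 dpf was -0.92. miR-196a-5p stood at 961 and 791 normalised CPM at 48 hpf, 399 at 72 hpf and 190.3 at 6 dpf (log2 -2.12, SE 0.62, not called). miR-10a-5p stood at 2613 and 2010.0, then 1502 and 1762 normalised CPM, and miR-10c-5p, which overlapped, at 1362 and 1839, then 1296 and 2227. The miR-29 list of 2 entries held 1 rise, miR-29a (3.75% of all tested rose), and a median of 4.02. Of 8 miR-30 entries 7 passed the filter and none was called, with a median of 0.69 (-0.62 on total counts). miR-30c-3p stood out among them at 1102 and 387, then 1786 and 5483 normalised CPM (log2 2.98, SE 0.79, adjusted p = 0.085 in edgeR).

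Markers of other tissues were present and did not all move in 1 direction. At 6 dpf the eye list held 1.78% of the counts, beside 1.61% for miR-126. At 48 hpf NoEndo held 25.5% and 7.30% for epithelium and skin, and 1.74% and 1.24% for muscle. It held 1.40% and 3.86% for mesenchyme and 4.89% and 4.61% for eye. The part of other cells in the Endo libraries was not tested. Epithelial and skin microRNAs (miR-200, miR-141, miR-429, miR-203 and miR-205) held 1.48% and 0.988% at 48 hpf, then 1.66% and 0.709% at the later stages. Of 16 entries 12 passed the filter, none was called, and the median with 2 entries at the floor was 0.08 (-1.34 on total counts with fitted values). miR-205-5p, the most abundant, stood at 8263 and 4108 normalised CPM at 48 hpf, 11741 at 72 hpf and 9078 at 6 dpf. Muscle microRNAs (miR-1, miR-133, miR-206 and miR-499) held 0.966% and 1.05%, then 0.942% and 0.228%, with 9 of 12 entries tested, none called and a median of -0.70 with 3 at the floor. Among those at the floor, miR-133a-2-5p and miR-133a-5p overlap at the same loci and had equal values in all 4 libraries, so they are not independent entries. miR-206-3p stood at 3800.3 and 1584, then 2888 and 1473 normalised CPM, with 72 hpf inside the pair and 6 dpf below it. Mesenchymal microRNAs (miR-140, miR-143, miR-145, miR-199 and miR-214) held 0.887% and 1.12%, then 1.53% and 1.24%. All 9 were tested, miR-145-5p alone rose (3.75% of all tested did), and the median was 0.72 (-0.61 on total counts). miR-214 stood at 4512 and 2661, then 5936 and 8606 normalised CPM.

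The gut and liver list held 0.0189% and 0.0233% at 48 hpf, then 0.0580% and 0.0904%. Of its 4 entries 3 were tested and miR-122 alone rose (3.75% of all tested did), with a median of 1.65 (0.37 on total counts). miR-192 of the intestine stood at 104 and 95.1 normalised CPM at 48 hpf, then 259 and 296, with both later libraries above the pair. The part of liver or gut cells in the miR-122 values was not tested. The eye list (miR-184 and miR-204) held 2.32% and 1.40%, then 3.61% and 1.78%. With TMM scaling its 3 tested entries all had both later libraries above the pair (25.4% of all tested did). Of these, miR-204-2-3p had few counts, at a mean of 11.2 CPM. The summed share of the eye list, which is of total counts, lay within the pair at 6 dpf. None of the 3 was called at 6 dpf and the median was 2.25 (0.96 on total counts). miR-184 stood at 522 and 495, then 974 and 2284 normalised CPM (log2 2.25, SE 0.52, adjusted p = 0.063 in edgeR). The pancreas list (3 of 4 tested, median -1.79) and the sensory list (3 of 6 tested, median 0.59, and -0.64 on total counts) held no call and shares of at most 0.112% and 0.0314%.

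**Figure D3:**
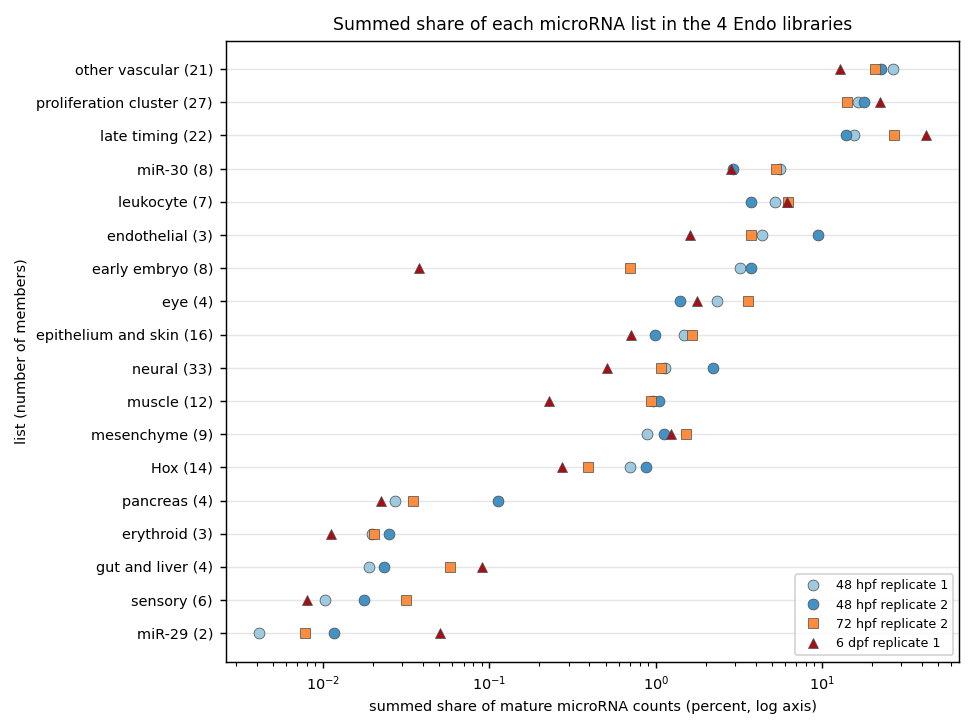
Summed share of mature microRNA counts (percent, log axis) held by each of 18 microRNA lists, with its number of members, in the 4 Endo libraries, which are marked by stage and replicate. The timing list went from 13.9% to 42.3% and the early embryo list, miR-430, from 3.74% to 0.0380% between 48 hpf replicate 2 and 6 dpf.

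Whether 72 hpf lies between 48 hpf and 6 dpf was read from whole profiles first. Over the 240 microRNAs, the root mean square log2 difference was 0.901 between 72 hpf and replicate 1 at 48 hpf and 1.15 between 72 hpf and replicate 2. These values bracket the 1.02 between the 48 hpf replicates, so replicate 1 was nearer to the 72 hpf library than to its own replicate. The 6 dpf library differed by 2.12 and 2.29 from the 48 hpf replicates and by 1.77 from 72 hpf. Spearman correlations across microRNAs, which are not independent replicates, followed the same order: 0.944 within 48 hpf, 0.956 and 0.932 with 72 hpf, 0.897 between 72 hpf and 6 dpf, and 0.849 and 0.821 between 48 hpf and 6 dpf. By these measures 72 hpf was nearer to 48 hpf than to 6 dpf, and nearer to 6 dpf than either 48 hpf library was. The 21 tested microRNAs without a count at 6 dpf entered at 0 and not at the floor, which can enlarge the differences from that library.

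Single microRNAs were then placed. On the scale of log2(normalised CPM + 1), 127 of 240 microRNAs (52.9%) had a 6 dpf level outside both 48 hpf values and at least 1 from their mean, 59 above and 68 below. The 21 tested microRNAs without a count at 6 dpf entered at 0 and not at the floor. Levels up to the floor remain possible for them, so the number below and the distances of those microRNAs may be too large. For 102 of these 127 (80.3%) the 72 hpf level lay between the 48 hpf mean and the 6 dpf level. Both later levels were measured from the same 48 hpf mean, and the 127 were chosen by their distance from it, which favours a 72 hpf level on the 6 dpf side. The share is a description of these 4 libraries, with no test and no value for the case of no change. For 22 it lay on the far side of 48 hpf and for 3 past 6 dpf, and in 33 of the 127 it was within the 48 hpf pair. On total counts 159 microRNAs qualified, with 23 above and 136 below, and 81.8% had 72 hpf between. With a 100 CPM filter, 65 of 71 (91.5%) did. The median distance covered by 72 hpf was 0.318 of the way to 6 dpf (quartiles 0.0920 and 0.506), 0.433 for those above 48 hpf at 6 dpf and 0.258 for those below. For comparison, 72 hpf lies at 0.369 of the way from 48 to 144 hours on a log scale and at 0.250 on a linear one.

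**Figure D4:**
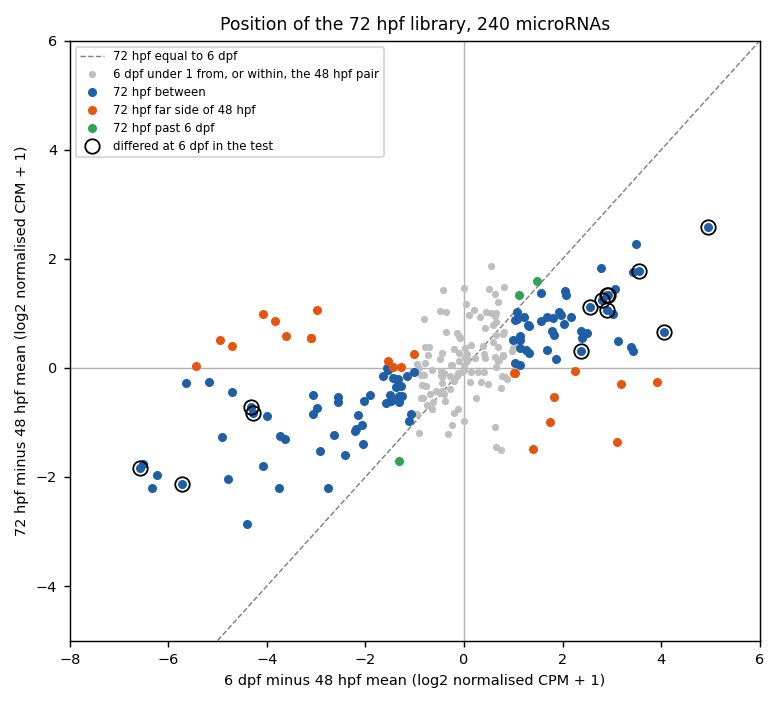
Difference of each library from the 48 hpf mean in log2(normalised CPM + 1), at 6 dpf (horizontal axis) and at 72 hpf (vertical axis), for 240 microRNAs; circled points are the 13 called at 6 dpf, and the dashed line marks equal levels at both later stages. Blue points, 102 of the 127 that qualified, have 72 hpf between, 22 orange points lie on the far side of 48 hpf and 3 green points lie past 6 dpf.

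All 13 microRNAs called at 6 dpf had 72 hpf between, and they too were chosen by their distance from the shared 48 hpf mean. Those furthest along were miR-122 at 0.523 of the log2 distance, miR-145-5p at 0.50, miR-125b-5p at 0.459 and miR-23a-3-5p at 0.455. miR-430b-3p was at 0.372 and miR-430a-3p at 0.279. Least far along were miR-735-5p at 0.129, miR-29a at 0.161, miR-9-7-3p at 0.165 and miR-9-4-3p at 0.192, whose difference from 48 hpf lay mostly after 72 hpf. Among the microRNAs with 72 hpf outside, miR-204-5p stood at 20343 and 8777 normalised CPM at 48 hpf, 33645 at 72 hpf and 28967 at 6 dpf, highest at 72 hpf. miR-92b-3p stood at 8295 and 4649, then 5809.9 and 12722, and miR-222b at 217 and 241, then 69.3 and 91.6. In miR-92b-3p 72 hpf was inside the pair, and in miR-222b it was the lowest of the 4. miR-181a-2-3p stood at 68.1 and 105, then 57.8 and 303 normalised CPM. For miR-181c-5p the values were 1669 and 1336, then 1625 and 514, and for the muscle miR-133c-3p 93.4 and 199, then 139 and 49.3. The 72 hpf value of miR-181a-2-3p was below the pair, and those of miR-181c-5p and miR-133c-3p were inside it.

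The later change was last compared with that of the NoEndo libraries, in 1 model of 8 libraries with 274 microRNAs tested. edgeR's quasi-likelihood test of the difference called 0 (0%), with 1 at an unadjusted p under 0.05, and limma-voom and DESeq2 each called 0. Within NoEndo alone the same test of later against 48 hpf called 10 of 262 (3.82%). On the scale of that model miR-122 stood at 52.2 and 46.5 CPM in Endo and 375 and 185 in NoEndo at 48 hpf. At 72 hpf it stood at 295 in Endo and 3519 in NoEndo, and at 6 dpf at 1613 and 8583. It was thus higher in NoEndo at every stage and higher later in both, with a log2 change of 4.14 (SE 0.86, adjusted p = 0.0014 in edgeR) within NoEndo. The change in Endo minus that in NoEndo was -0.18 (SE 1.14). The differences of change were also small against their SE for miR-125b-5p (-0.08, SE 1.23), miR-145-5p (-0.20, SE 1.26) and miR-430b-3p (-0.59, SE 1.68). A log2 difference of 1 is smaller than each of these SEs, and a p that misses the threshold does not show that they changed alike.

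Among microRNAs with a mean of at least 100 CPM in Endo, the smallest unadjusted p of the difference belonged to miR-724, miR-223 and miR-222b. In Endo, miR-724 stood at 358 and 387 CPM at 48 hpf, then 348 and 428. In NoEndo it stood at 278 and 403, then 664 and 1941, so the later libraries were above the pair in NoEndo and overlapped it in Endo (difference -1.88, SE 0.90). In Endo, miR-223 stood at 6852 and 5785 CPM at 48 hpf, then 2047 and 1221. In NoEndo it stood at 513 and 331, then 156 and 666, and the groups overlapped there (difference -1.91, SE 0.98). For miR-222b the difference was -2.59 (SE 1.40). None of these passed the adjustment.

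**Figure D5:**
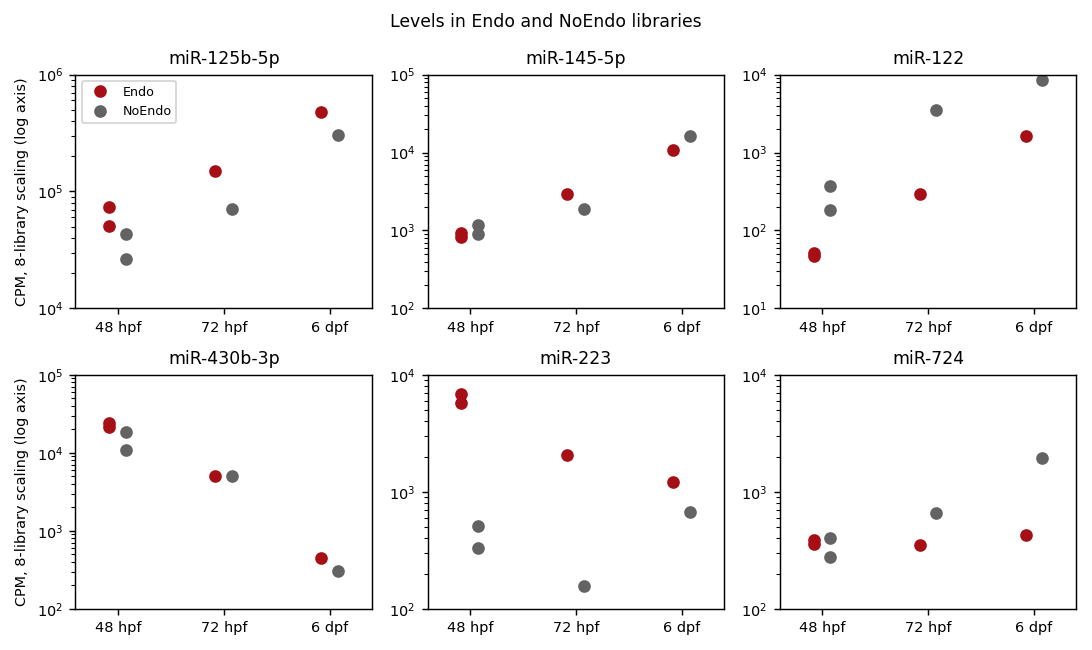
Levels of 6 microRNAs in CPM (log axis, a scale of its own in each panel) at 48 hpf, 72 hpf and 6 dpf in 4 Endo and 4 NoEndo libraries, scaled over those 8; each point is a library. miR-125b-5p, miR-145-5p and miR-122 are highest at 6 dpf in both populations, miR-430b-3p is lowest there in both, and miR-724 reaches 1941 at 6 dpf in NoEndo against 428 in Endo.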

How the data were processed

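STAR 2.3.0 and the Zv9 build are named in the submitters' processing notes. No source used here gives the trimming, the annotation or the counting program. Each deposited table lists every genomic copy of a microRNA on its own line. The deposited read counts enter a read at all copies it maps to. The deposited expected counts split it between copies, per the file headers, and carry no scaling for depth. The deposited signal columns scale reads to 2 library totals, per the file headers, and were used to recover those totals. E1 and E2 in the sample titles became replicate 1 and replicate 2, although some file names differ from the titles.

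Expected counts of the sense tables were summed by microRNA name and rounded. Their sum was 99.85% to 99.95% of the reads on mature microRNAs in the 4 Endo libraries. The 240 of 326 microRNAs tested took at least 99.96% of the counts in every library. TMM factors were 1.11 and 1.52 for the 48 hpf replicates, 1.04 for 72 hpf and 0.568 for 6 dpf. Reads on mature microRNAs were 7.75% to 18.8% of a larger library total that the headers do not define. Intervals and floors cover counting error only, and the floor is 3 counts.

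The main test was edgeR 4.0.16 (R 4.3.3), robust quasi-likelihood, after TMM scaling, at a Benjamini-Hochberg adjusted p of 0.05, on 4 libraries in 2 groups, with no covariate. Stage steps came from a fit of 10 libraries, which includes both populations at 24 hpf. The difference between populations came from an interaction over 8 libraries. An SE was obtained by dividing a log2 difference by the root of its F value. DESeq2 1.42.0 and voom in limma 3.58.1 were alternatives. The tests were first tried on simulated counts of independent libraries with 1 spread. That trial does not show how they behave on these libraries.

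Members and lists were chosen with earlier results of these data known. MicroRNAs were named by a rule. At a mean of at least 100 CPM, it takes the 5 smallest p in each direction where fewer pass, the 5 most abundant of each library, and the 5 largest called stage changes in each direction. It adds the 3 largest changes with 72 hpf between and outside, the 3 smallest p of the population difference, and members of the 18 lists. The calls at 6 dpf are all named, whatever the rule takes. Reads of close paralogs, such as those of let-7, miR-430 and miR-125, are uncertain between members. Mature sequences are not printed.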

Additional observations from a re-analysis of the deposited data

How the results depend on the processing

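Of 297 settings of the microRNAs named for the later and 6 dpf comparisons, none changed sign, 183 kept their side of the threshold, 62 lost it and 52 gained it. For later against 48 hpf, 0 calls became 2 on total counts, 11 with no filter, 16 with DESeq2, 4 with 1 mean per population and stage, 42 with a slope, 14 with the identical file kept as Endo and 1 with arms summed. Leaving out a library gave 0 to 38. For 72 hpf against 48 hpf, DESeq2 called 2 and leaving out a library gave 0 to 1. For 6 dpf against 48 hpf, 13 calls became 5 with DESeq2 size factors, 8 on total counts, 5 with no filter, 29 with a 100 CPM filter, 38 with DESeq2 and 27 with the 5 Endo libraries alone. Leaving out a library gave 0 to 39. For 6 dpf against 72 hpf, total counts gave 2, a 100 CPM filter 1, DESeq2 3 and leaving out a library 0 to 1. The population difference stayed at 0 in all settings run. The share with 72 hpf between was 91.5% with a 100 CPM filter and 77.0% to 82.8% otherwise. The causes were not tested. Total counts moved the median of all microRNAs to -0.64 in later against 48 hpf and to -1.32 at 6 dpf, where the medians of the timing and other vascular lists turned from 1.05 to -0.24 and from 0.55 to -0.79.

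Replicate numbers recur across stages and populations, and no label says that they mark a shared clutch, batch or day. Differences between replicates 1 and 2 correlated at 0.656 between Endo and NoEndo at 48 hpf (274 microRNAs) and at 0.0409 between 48 hpf and later Endo (240). With the replicate block the counts were 3 for later against 48 hpf, 57 at 72 hpf, 86 at 6 dpf, 50 between the later stages and 0 for the population difference.

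At 6 dpf, 21 tested microRNAs had 0 counts, and this library, with 250084 reads, limits every low level at that stage.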

Other observations

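Outside the 18 lists, 6 further microRNAs with a rising slope on log2 hours were picked after their values were seen. miR-129-3p, known from the nervous system, stood at 717 and 496 normalised CPM at 48 hpf, 1049 at 72 hpf and 2424 at 6 dpf (slope 1.26 per doubling of age, adjusted p = 0.013 in edgeR). The entry miR-129-1-3p stood at 256 and 192, then 437 and 867 normalised CPM, and miR-129-5p at 5.89 and 9.77, then 9.63 and 91.6. Both later libraries were above the pair for the first of these entries and for the second, and overlapped it for miR-129-5p. miR-462, an interferon-responsive microRNA of fish, stood at 149 and 57.8 normalised CPM at 48 hpf, 132 at 72 hpf and 818 at 6 dpf (slope 1.87, adjusted p = 0.012 in edgeR). miR-187 stood at 100.1 and 83.5, then 147 and 479, and miR-101a at 13.5 and 65.8, then 39.5 and 324. Neither miR-462 nor miR-101a separated the later libraries from the pair, and for each the 6 dpf library was the highest of the 4.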
